A study of Homo sapiens with 18 samples.

Results

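The replication-dependent histone genes measured here were 57 of the 18417 genes tested: 6 H1, 14 H2A, 16 H2B, 8 H3 and 13 H4 genes. They were chosen by symbol alone, as H1-1 to H1-6 and every symbol made of H2AC, H2BC, H3C or H4C followed by a number. The symbol rule itself uses no difference between groups, but it was set with earlier results of these data known. Each had 1 probe set that lists no other gene. RefSeq holds 69 such symbols, and the other 12 were not analysed here as single genes. H4C14 and H4C15 had the same values on every array, so the 57 members gave 56 distinct measurements. The members are close copies of each other, and how much of a signal came from a related copy was not tested. Of the 57, 52 were matched to RefSeq promoter entries on GRCh38.p14, 44 of them on chromosome 6, 7 on chromosome 1 and 1 on chromosome 12.

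Core histones H2A, H2B, H3 and H4 form the protein spool of the nucleosome, and H1 is the linker histone that binds where DNA enters and leaves it. Cells make the bulk of these proteins during S phase, when new DNA has to be packaged. The genes sit in clusters, with NPAT, a substrate of cyclin E-CDK2, driving their transcription. Their mRNAs mostly end in a stem-loop bound by SLBP instead of a poly(A) tail and are degraded quickly when DNA synthesis stops. p53 acts upstream of this programme in G1 arrest, since its target CDKN1A encodes p21, an inhibitor of cyclin E-CDK2.

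NCI-H1299 is a non-small cell lung carcinoma line without p53. Its cells were transiently transfected with pIRES-2EGFP vectors, which also encode green fluorescent protein, sorted for fluorescence and collected 40 hours after transfection, in 6 groups of 3 arrays in 2 sets. The first set compared ΔNp53:WTp53, a construct named for wild-type p53 and its N-terminally shortened form ΔNp53, with wild-type p53 (WTp53) and with empty vector, in experiments 0, 4 and 5, which were independent transfections. The second set compared tethered WTp53 with WTp53 and with empty vector in experiments d, e and f, which are called controls and whose independence is not stated, so their p-values may measure technical spread. The transfection field of the tethered arrays names ΔNp53:WTp53 against their title and description, and they were grouped by title. All groups shared the p53-null background and a transfected plasmid that makes the fluorescent protein. Values are log2 intensities after RMA, the authors' normalization. The kit labels total RNA without selecting poly(A) tails.

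The first set had array medians of 4.89 to 4.97 and the second of 7.01 to 7.07, so levels were compared only within a set. Between replicates, the median SD of the members was 0.295 for ΔNp53:WTp53, 0.164 for WTp53 and 0.115 for vector in the first set, against 0.151, 0.109 and 0.104 over all genes. The ΔNp53:WTp53 array of experiment 0 stood apart for many members, so counts for the first set are also given without experiment 0. The keratins KRT18 (10.40 with WTp53 and 10.32 with vector in the first set) and KRT8 (9.35 and 9.02) were high. The lung epithelial markers EPCAM (3.10 and 2.95) and NKX2-1 (3.39 and 3.35) lay below the array medians. Of 8 such markers 1 rose with ΔNp53:WTp53 (KRT8, 0.86) and 1 with WTp53 (SFTPC, 1.33) against vector in the first set, and 3 rose with tethered WTp53 and 2 with WTp53 in the second. Calls came to 12.5% with either construct in the first set, against 36.1% and 31.8% of all genes. In the second they came to 37.5% and 25%, against 47.8% and 36.8%, so no share was above that of all genes. None of the 8 fell, and none of 6 fibroblast and endothelial markers passed in any comparison (at most 1 had an unadjusted p under 0.05). The leukocyte markers had mean log2 levels of 3.72 to 3.94 with ΔNp53:WTp53, 4.00 to 4.03 with WTp53 and 3.75 to 3.94 with vector, also below the medians, and TYROBP rose by 0.47 with WTp53 while the other 4 of 5 did not pass the test. The part of these markers in the histone results was not tested. CDKN1A rose in every comparison with vector, by 3.69 ± 0.26 with ΔNp53:WTp53 and 4.62 ± 0.26 with WTp53 in the first set, and by 3.22 ± 0.06 with tethered WTp53 and 3.13 ± 0.06 with WTp53 in the second (log2 difference ± SE of the limma fit, as for all differences below).

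Histone mRNAs were lower in p53-transfected cells than in vector cells of the first set. With ΔNp53:WTp53, 34 of the 57 members fell and 1 rose at a limma adjusted p under 0.05, against 20.3% and 15.7% of all genes (36.1% in either direction). With WTp53, 36 fell and 1 rose, against 16.6% and 15.2% of all genes (31.8% in either direction). The median difference of the members was −0.55 with ΔNp53:WTp53 and −0.77 with WTp53, where the median of all genes was 0.01 and 0.02. Both comparisons use the same 3 vector arrays. Without experiment 0, 36 members fell and 3 rose with ΔNp53:WTp53, and 37 fell and 2 rose with WTp53. In sorted bulk cells, fewer cells in S phase and less histone mRNA per cell cannot be told apart. Of 19 measured DNA replication genes, 16 fell and 2 rose with ΔNp53:WTp53 (94.7% called, against 36.1% of all genes). With WTp53, 4 fell and 1 rose (26.3%, against 31.8% of all genes), a share not above that of all genes. The part of the replication genes in the histone values was not tested.

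Falls were found in all 5 histone types. Of the 6 H1 genes 4 fell with either construct. H1-5, with the largest fall of this type, had 10.38, 9.03 and 8.84 with ΔNp53:WTp53, 9.60, 8.96 and 8.96 with WTp53, and 10.98, 11.35 and 11.05 with vector (log2 values of experiments 0, 4 and 5, the order used for this set throughout). No array of either construct reached the vector arrays, but the ΔNp53:WTp53 array of experiment 0 was over 1 unit above its replicates. H1-5 fell 3.28-fold with ΔNp53:WTp53 (−1.71 ± 0.35, adjusted p = 0.00382 by limma) and 3.88-fold with WTp53 (−1.95 ± 0.35, adjusted p = 0.00208). H1-3 fell by 1.03 and 1.15 with the same constructs. H1-2, which also makes a polyadenylated transcript, had 7.68, 7.27 and 7.28 with ΔNp53:WTp53, 7.28, 7.26 and 7.20 with WTp53, and 8.30, 8.42 and 8.38 with vector, and it fell by 0.95 ± 0.11 and 1.12 ± 0.11. The testis linker histone H1-6 was dim (3.29 with ΔNp53:WTp53, 3.41 with WTp53 and 3.81 with vector) and did not pass the test, with differences of −0.51 (adjusted p = 0.0706, or 0.0383 with the experiment as a block) and −0.40.

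Among the 14 H2A genes 11 fell with either construct and none rose. H2AC21 had 8.63, 8.52 and 8.51 with ΔNp53:WTp53, 8.02, 7.89 and 7.88 with WTp53, and 9.25, 9.66 and 9.54 with vector. The 3 groups did not overlap, and the WTp53 arrays were the lowest. It fell 2.94-fold with WTp53 (−1.56 ± 0.11, adjusted p = 1.91e-05). H2AC4 fell by 1.22 ± 0.19 with ΔNp53:WTp53 and by 1.57 ± 0.19 with WTp53, the largest falls of this type, and H2AC15 by 1.09 ± 0.20 with ΔNp53:WTp53. H2AC6, another gene with a polyadenylated transcript, had 9.78, 9.79 and 9.53 with ΔNp53:WTp53, 9.40, 9.39 and 9.42 with WTp53, and 10.27, 10.28 and 10.24 with vector, again without overlap. Its falls were 0.56 ± 0.09 and 0.86 ± 0.09. H2AC1, a testis gene, averaged 2.95 with ΔNp53:WTp53, 2.79 with WTp53 and 2.90 with vector, and its differences of 0.05 and −0.12 did not pass.

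The 16 H2B genes held movers in both directions: 7 fell and none rose with ΔNp53:WTp53, and 9 fell and 1 rose with WTp53. H2BC7 had 7.04, 6.42 and 6.42 with ΔNp53:WTp53, 5.69, 5.59 and 5.52 with WTp53, and 7.68, 7.98 and 7.78 with vector. The WTp53 arrays lay far below both other groups. It fell 4.63-fold with WTp53 (−2.21 ± 0.16, adjusted p = 2.09e-05), the largest fall of any histone member in that comparison and rank 17 among the falls of all genes. H2BC14 fell by 1.99 ± 0.45 with ΔNp53:WTp53, on arrays of unequal height (7.82, 6.24 and 5.49, against 8.59, 8.52 and 8.40 with vector). H2BC9 fell by 1.5 ± 0.28 with ΔNp53:WTp53 and 1.64 ± 0.28 with WTp53. H2BC5, with a polyadenylated transcript, fell by 0.52 ± 0.12 and 0.86 ± 0.12. The testis gene H2BC1 fell by 0.27 ± 0.08 with ΔNp53:WTp53 (adjusted p = 0.0272) near the bottom of the intensity range (3.01 against 3.28), and its difference of −0.17 with WTp53 did not pass.

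All 8 H3 members encode the replication-dependent protein H3.1. Of them 3 fell and 1 rose with ΔNp53:WTp53, and 4 fell with WTp53. H3C7 fell 3.46-fold with ΔNp53:WTp53 (−1.79 ± 0.36, adjusted p = 0.00322) and 3.85-fold with WTp53 (−1.95 ± 0.36, adjusted p = 0.00225). H3C2 fell by 1.48 ± 0.22 with ΔNp53:WTp53, and H3C12 fell by 1.79 ± 0.27 with WTp53. Among 13 H4 genes, 9 fell with ΔNp53:WTp53 and 8 with WTp53. H4C2 had 8.34, 7.27 and 6.92 with ΔNp53:WTp53, 7.83, 7.50 and 7.83 with WTp53, and 9.16, 9.76 and 9.69 with vector, with no overlap between either construct and vector. It fell 4.07-fold with ΔNp53:WTp53 (−2.02 ± 0.31, adjusted p = 0.000871), rank 9 among the falls of all genes, and 3.51-fold with WTp53 (−1.81 ± 0.31, adjusted p = 0.00167). H4C8 had 8.51, 8.55 and 8.39 with ΔNp53:WTp53, 8.29, 8.17 and 8.16 with WTp53, and 9.63, 10.21 and 10.37 with vector, and it fell by 1.87 ± 0.16 with WTp53. H4C3 had 9.29, 9.02 and 8.86 with ΔNp53:WTp53, 9.32, 9.31 and 9.23 with WTp53, and 10.11, 10.35 and 10.32 with vector, and it fell by 1.20 ± 0.12 and 0.97 ± 0.12. H4C4 fell by 1.70 ± 0.21 with ΔNp53:WTp53.

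**Figure D1:**
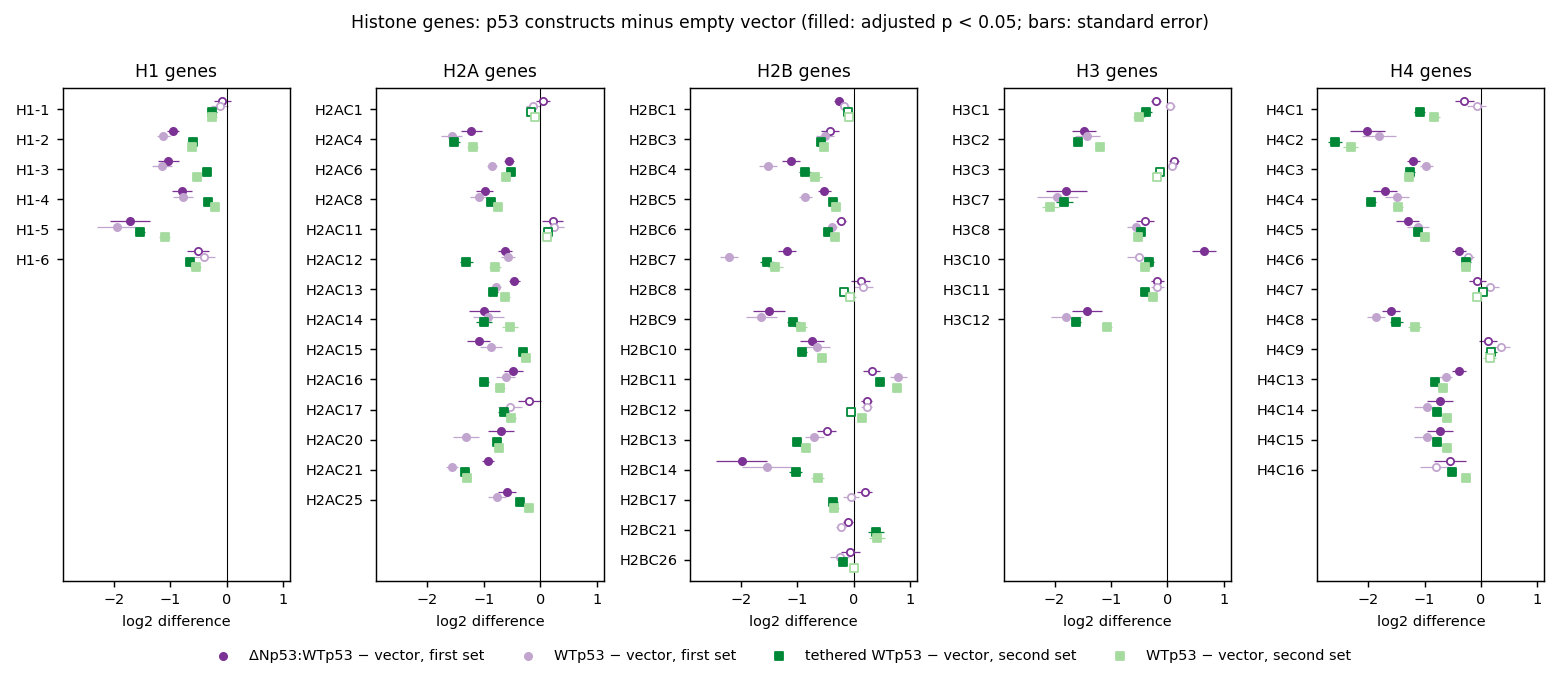
Log2 difference of each histone member from empty vector, by histone type, for ΔNp53:WTp53 and WTp53 (circles, the first set) and tethered WTp53 and WTp53 (squares, the second set). Filled points passed a limma adjusted p of 0.05 and bars are standard errors. Most points lie left of 0 in every panel, H4C2 reaches −2.59, and H2BC11 lies right of 0 in all 4 comparisons.

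Histone mRNAs were lower with either construct than with vector in the second set too. With tethered WTp53, 47 of 57 fell and 2 rose, against 26.2% and 21.6% of all genes (47.8% in either direction). With WTp53, 46 fell and 3 rose, against 18.9% and 17.9% of all genes (36.8% in either direction). The median difference of the members was −0.65 with tethered WTp53 and −0.55 with WTp53, where the median of all genes was 0.00 and −0.02. Replicates were closer in this set, with a median SD of the members of 0.110, 0.0764 and 0.0945 for tethered WTp53, WTp53 and vector, so smaller differences passed the test. In a fit that shares the spread of all 18 arrays, 39 members fell with tethered WTp53 and 35 with WTp53 in this set, and 40 with ΔNp53:WTp53 and 39 with WTp53 in the first, so the counts do not order the sets. Both comparisons share the 3 vector arrays. Of the 19 DNA replication genes, 16 fell and 2 rose with tethered WTp53 (94.7% called, against 47.8% of all genes). With WTp53, 10 fell and 2 rose (63.2%, against 36.8%). Of the leukocyte markers, CD14 fell by 0.50 with tethered WTp53 and by 0.33 with WTp53, while the mean log2 level of the 5 measured markers was 5.96 to 6.09 with tethered WTp53, 6.04 to 6.11 with WTp53 and 6.09 to 6.16 with vector. Its part in the histone results was not tested.

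H4C2 showed the largest fall of all 18417 genes in both comparisons with vector of the second set. It had 8.53, 8.92 and 8.77 with tethered WTp53, 9.06, 9.06 and 8.95 with WTp53, and 11, 11.44 and 11.55 with vector (experiments d, e and f, as for this set throughout). The vector arrays lay about 2 units or more above every p53 array. H4C2 fell 6.02-fold with tethered WTp53 (−2.59 ± 0.13, adjusted p = 5.44e-08) and 4.95-fold with WTp53 (−2.31 ± 0.13, adjusted p = 3.03e-07). Of the 13 H4 genes 11 fell with either construct. H4C4 had 9.15, 9.13 and 9.04 with tethered WTp53, 9.63, 9.56 and 9.56 with WTp53, and 10.93, 10.93 and 11.31 with vector. The groups formed 3 separate steps, and the falls were 1.95 ± 0.09 and 1.47 ± 0.09. H4C5 had 10.29, 10.43 and 10.35 with tethered WTp53, 10.49 on every WTp53 array, and 11.43, 11.54 and 11.47 with vector, and it fell by 1.12 ± 0.05 and 0.99 ± 0.05. The members without a call were H4C7, which encodes a divergent H4 protein (0.03 and −0.08), and H4C9 (0.18 and 0.15).

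All 6 H1 genes fell with either construct in the second set. H1-5 had 8.76, 8.94 and 8.67 with tethered WTp53, 9.21, 9.31 and 9.16 with WTp53, and 10.36, 10.14 and 10.48 with vector, falls of 1.54 ± 0.09 and 1.10 ± 0.09. H1-2 fell by 0.60 ± 0.08 and 0.62 ± 0.08, and the testis gene H1-6 by 0.65 ± 0.09 and 0.55 ± 0.09. Of the 8 H3 genes 7 fell with either construct. H3C7 fell 3.56-fold with tethered WTp53 (−1.83 ± 0.15, adjusted p = 1.72e-06) and 4.24-fold with WTp53 (−2.08 ± 0.15, adjusted p = 1.43e-06), where it ranked next to H4C2 among all genes. H3C2 had 10.32, 10.59 and 10.32 with tethered WTp53, 10.76, 10.85 and 10.74 with WTp53, and 11.99, 11.96 and 12.01 with vector. H3C12 had 7.80, 7.86 and 8.12 with tethered WTp53, 8.48, 8.48 and 8.46 with WTp53, and 9.63, 9.54 and 9.46 with vector. Both genes were lowest with tethered WTp53, next with WTp53 and highest with vector, with no overlap. H3C3 was the H3 member without a call, at −0.14 and −0.19.

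Of the 14 H2A genes 12 fell with either construct in the second set, and none rose. H2AC4 fell by 1.52 ± 0.10 with tethered WTp53 and 1.20 ± 0.10 with WTp53, and H2AC21 by 1.34 ± 0.07 and 1.29 ± 0.07. H2AC6 fell by 0.52 ± 0.06 and 0.61 ± 0.06. The testis gene H2AC1 (−0.16 and −0.10) and H2AC11 (0.14 and 0.12) did not pass. Of the 16 H2B genes 11 fell and 2 rose with tethered WTp53, and 10 fell and 3 rose with WTp53. H2BC7 fell by 1.54 ± 0.13 and 1.39 ± 0.13, H2BC9 by 1.07 ± 0.11 and 0.94 ± 0.11, and H2BC5 by 0.37 ± 0.07 and 0.31 ± 0.07. The testis gene H2BC1 did not pass, at −0.10 and −0.09.

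Rises against vector were few, and outside H3C10 they were all H2B genes. H2BC11 had 7.74, 7.99 and 7.47 with ΔNp53:WTp53, 7.99, 8.26 and 8.36 with WTp53, and 7.33, 7.57 and 7.33 with vector. The WTp53 arrays lay above all vector arrays, while ΔNp53:WTp53 overlapped vector. Values of the second set were 9.02, 9.15 and 9.27 with tethered WTp53, 9.38, 9.51 and 9.41 with WTp53, and 8.64, 8.62 and 8.77 with vector, with no overlap among the groups. With WTp53 it rose 1.73-fold in the first set (0.79 ± 0.15, adjusted p = 0.00241) and 1.69-fold in the second (0.76 ± 0.07, adjusted p = 8.22e-06), and with tethered WTp53 1.39-fold (0.47 ± 0.07, adjusted p = 0.00015). The difference with ΔNp53:WTp53 was 0.32 ± 0.15 and did not pass.

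H2BC21, one of the genes with a polyadenylated transcript, had 9.76, 9.74 and 9.99 with tethered WTp53, 9.76, 9.87 and 9.93 with WTp53, and 9.35, 9.16 and 9.81 with vector. The vector array of experiment f overlapped both constructs. It rose by 0.39 ± 0.14 (adjusted p = 0.0368) and 0.41 ± 0.14 (adjusted p = 0.0362), and neither call held in every alternative fit. In the first set its differences were −0.10 with ΔNp53:WTp53 and −0.23 with WTp53, and neither passed. H2BC12, also with a polyadenylated transcript, had 11.88, 12 and 11.97 with tethered WTp53, 12.14, 12.18 and 12.11 with WTp53, and 11.98, 11.99 and 12.02 with vector. The WTp53 arrays were the highest in each experiment, and WTp53 raised it by 0.15 ± 0.04 (adjusted p = 0.0228). Of the 5 members reported to make polyadenylated transcripts, 3 fell in each comparison with vector (H1-2, H2AC6 and H2BC5), and H2BC12 and H2BC21 did not fall in any.

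H3C10 rose in ΔNp53:WTp53 cells. It had 9.08, 9.96 and 9.78 with ΔNp53:WTp53, 8.46, 8.18 and 8.69 with WTp53, and 8.88, 8.97 and 9.02 with vector. All ΔNp53:WTp53 arrays lay above all arrays of the other groups, but that of experiment 0 by only a little. Against vector it rose by 0.65 ± 0.21 (adjusted p = 0.0332), and this call was lost without the ΔNp53:WTp53 array of experiment 4 or 5 or without any 1 vector array. Its difference with WTp53 was −0.51 and did not pass. It fell by 0.32 with tethered WTp53 and by 0.39 with WTp53 in the second set. With the experiment as a block, a further member, H4C9 (0.36), rose with WTp53 in the first set (adjusted p = 0.0188, against 0.116 without the block), so that 2 members rose in place of 1.

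**Figure D2:**
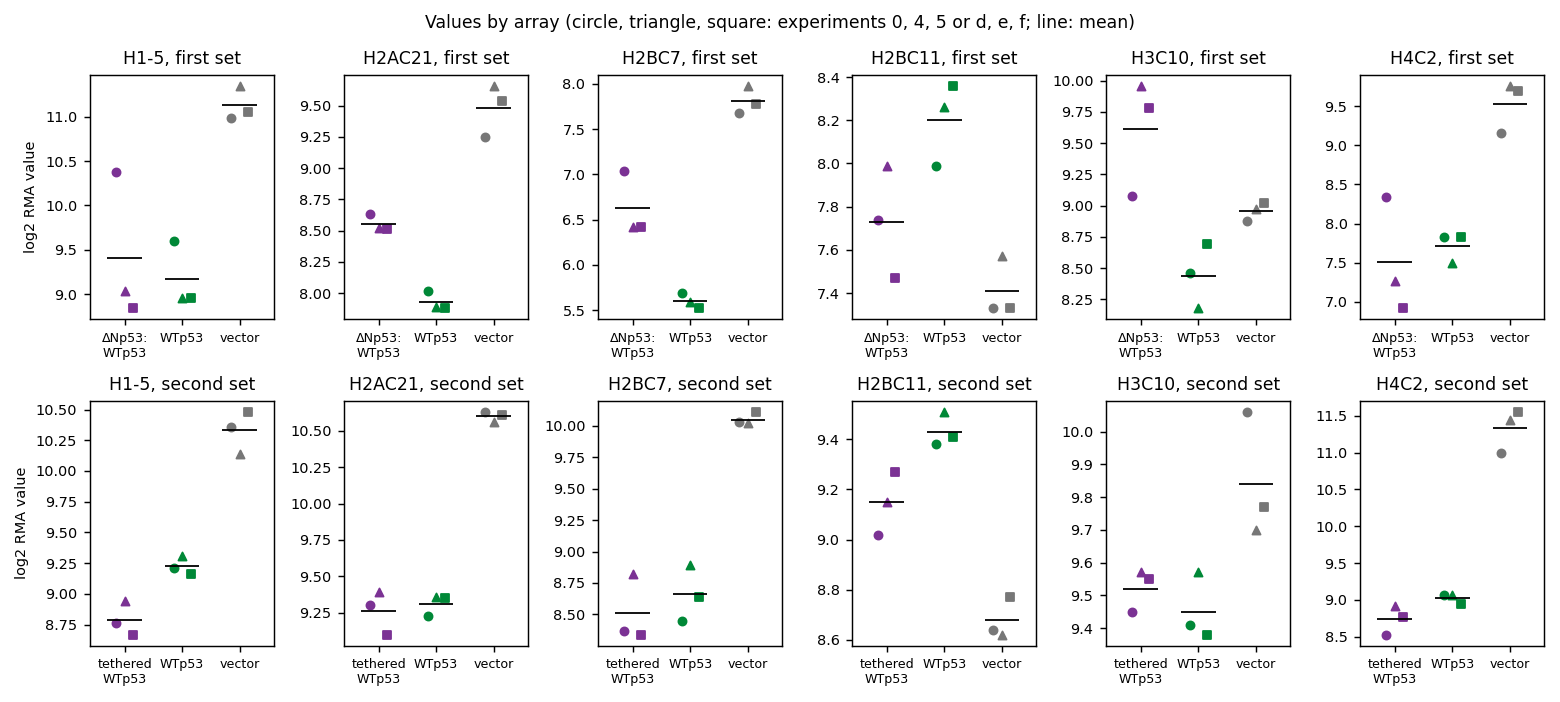
Log2 RMA value on each array for 6 members, with ΔNp53:WTp53 or tethered WTp53, WTp53 and vector from left to right, the first set above and the second below; each panel has its own axis and lines are means of 3 arrays. H4C2 with vector stays above 9 in the first set and at or above 11 in the second, clear of all p53 arrays, while H2BC11 with WTp53 lies above vector in both sets.

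Promoters of H4C2 and H2BC7, which fell, and of H2BC11 and H2BC21, which rose in some comparisons with vector, are shown side by side. The rises of H2BC21 were small and did not hold in every alternative fit. Each is the 250 bases before the RefSeq start on GRCh38.p14, 5′ to 3′ on the gene's strand, with matches to 4 motifs on either strand in capitals: the CCAAT box (CCAAT or ATTGG), the octamer (ATTTGCAT or ATGCAAAT), the TATA box (TATAAA or TTTATA) and TTTGAA (or TTCAAA). H4C2 is chr6:26027284-26027533 on the minus strand, H2BC7 is chr6:26199266-26199515 on the plus strand, H2BC11 is chr6:27132796-27133045 on the minus strand and H2BC21 is chr1:149886683-149886932 on the minus strand.
H4C2: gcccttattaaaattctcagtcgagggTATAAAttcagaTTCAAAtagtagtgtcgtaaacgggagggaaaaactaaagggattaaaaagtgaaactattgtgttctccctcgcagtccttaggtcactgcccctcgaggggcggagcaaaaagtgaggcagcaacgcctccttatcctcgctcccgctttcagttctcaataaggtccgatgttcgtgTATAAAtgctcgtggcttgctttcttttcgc
H2BC7: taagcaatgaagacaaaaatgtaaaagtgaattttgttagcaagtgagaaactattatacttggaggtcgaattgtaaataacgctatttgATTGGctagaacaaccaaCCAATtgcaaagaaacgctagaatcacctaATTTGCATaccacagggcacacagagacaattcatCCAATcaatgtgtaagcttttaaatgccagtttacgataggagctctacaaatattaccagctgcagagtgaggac
H2BC11: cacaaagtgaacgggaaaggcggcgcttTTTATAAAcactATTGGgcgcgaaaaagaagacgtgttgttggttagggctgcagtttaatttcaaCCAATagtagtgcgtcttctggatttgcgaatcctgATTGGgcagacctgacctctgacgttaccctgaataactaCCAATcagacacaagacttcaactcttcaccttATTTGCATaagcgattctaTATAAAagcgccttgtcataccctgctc
H2BC21: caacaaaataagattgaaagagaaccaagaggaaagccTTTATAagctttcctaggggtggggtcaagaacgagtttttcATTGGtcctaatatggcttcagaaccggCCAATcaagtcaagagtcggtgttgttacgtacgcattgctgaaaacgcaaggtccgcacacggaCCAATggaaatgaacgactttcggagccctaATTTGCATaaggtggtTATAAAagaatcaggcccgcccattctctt
H4C2, with the largest fall, held 2 TATA boxes and 1 TTTGAA match but no CCAAT box and no octamer. H2BC7, which fell, held 3 CCAAT boxes and 1 octamer but no TATA match. CCAAT boxes and 1 octamer also stood before H2BC11 (4 CCAAT boxes) and H2BC21 (3 CCAAT boxes), which rose in at least 1 comparison. Unlike H2BC7, both held TATA matches as well, 3 before H2BC11, of which 2 overlap, and 2 before H2BC21. The H2AC11 start lies 248 bases from that of H2BC11, and the H2AC20 start 236 bases from that of H2BC21. These windows thus also lie before the H2A genes, and a match cannot be assigned to 1 gene of a pair. Pairs were sought only among the members, so the same may hold for H2BC7 with a neighbour outside them. H2AC20 fell in all 4 comparisons with vector, while H2AC11 did not fall in any.

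Over windows from 250 bases before to 50 bases after the start, 44 of the 52 member promoters held a CCAAT box (84.6%), against 35.7% of 27305 tabulated promoters. All H1, H2A, H2B and H3 promoters held it, and 3 of 11 H4 promoters did. The octamer, the binding motif of OCT1, was in 44.2% of member promoters against 1.8% of all. It was found in 10 of 13 H2A and 13 of 16 H2B promoters and in no H1, H3 or H4 promoter. In 9 pairs an H2A and an H2B start lie 215 to 248 bases apart, so their windows overlap and shared matches count for both genes. The TATA box was in 65.4% against 12%, and TTTGAA in 32.7% against 15.4%. These matches are descriptions of the letters in each window.

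Many H2A and H2B genes lie head to head with their starts close together, and 9 such pairs of members were 215 to 248 bases apart. The pairs were examined after the values were seen. With ΔNp53:WTp53 both genes fell in 2 pairs, the H2A gene alone in 4, the H2B gene alone in 1 (H2BC1), and neither in 2. With WTp53 in the first set both genes fell in 3 pairs, the H2A gene alone in 3, the H2B gene alone in 0, and neither in 3. With tethered WTp53 both fell in 5 pairs, the H2A gene alone in 2, the H2B gene alone in 0, and neither in 2. With WTp53 in the second set both fell in 4 pairs, the H2A gene alone in 3, the H2B gene alone in 0, and neither in 2. H2AC20 and H2BC21, 236 bases apart, gave −1.31 and −0.23 with WTp53 in the first set and −0.73 and 0.41 in the second. H2AC8 and H2BC8, 233 bases apart, gave −1.09 and 0.17 in the first set and −0.74 and −0.06 in the second. In these pairs the H2A gene fell in both sets, and H2BC8 did not pass in either. H2AC11 and H2BC11, 248 bases apart, gave 0.24 and 0.79 in the first set and 0.12 and 0.76 in the second, with a call for H2BC11 in both sets and none for H2AC11. In contrast, H2AC13 and H2BC13 fell together, by 0.79 and 0.70 in the first set and by 0.62 and 0.85 in the second. The difference within a pair was not tested, since the probe sets differ in response.

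**Figure D3:**
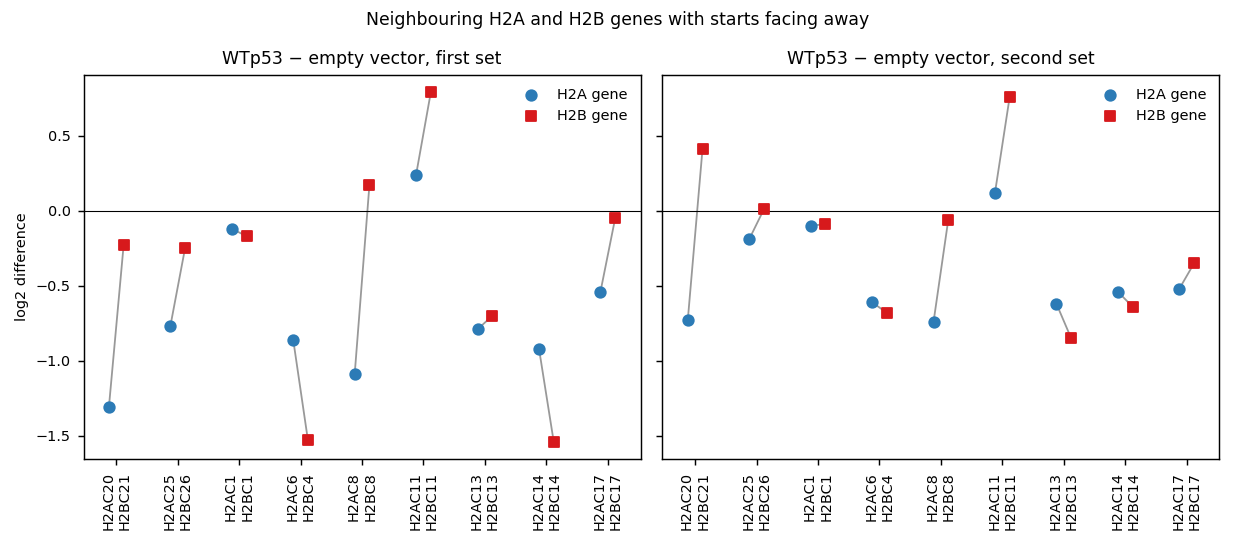
Log2 difference of WTp53 from empty vector for the H2A gene (circle) and the H2B gene (square) of 9 head-to-head pairs, joined by a line, for the first set (left) and the second set (right). H2BC11 is highest of all 18 genes in both sets, and the line of H2AC20 and H2BC21 spans −0.73 to 0.41 in the second set.

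ΔNp53:WTp53 was also compared with WTp53. Tethered WTp53, the control for a joined construct, is only in the second set. Within the first set, the shortened form and the joining therefore cannot be told apart. Against WTp53, 3 of 57 members rose with ΔNp53:WTp53 and none fell, against 1.56% and 0.88% of all genes (2.44% in either direction). A further 7 members, 10 in all, had an unadjusted p under 0.05, and the median difference of the members was 0.13. H3C10 was 2.24-fold higher (9.61 ± 0.47 with ΔNp53:WTp53 and 8.44 ± 0.26 with WTp53, SD, n = 3; 1.16 ± 0.21, adjusted p = 0.0228 by limma). H2BC7 was 2.03-fold higher (6.63 ± 0.36 and 5.60 ± 0.09; 1.02 ± 0.16, adjusted p = 0.0151), and H2AC21 was 1.54-fold higher (8.55 ± 0.07 and 7.93 ± 0.08; 0.62 ± 0.11, adjusted p = 0.0222). H2BC7 and H2AC21 thus stood between WTp53 and vector, whereas H3C10 stood above both. The next members by p did not pass: H2AC6 (0.30, adjusted p = 0.112), H2AC13 (0.33, adjusted p = 0.118) and H2BC11 (−0.47, adjusted p = 0.126). H2AC20 (0.62, adjusted p = 0.187) passed with the experiment as a block (adjusted p = 0.0244).

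The experiments did not give one picture of this contrast. Experiment 0 had a median member difference of 0.31 with 14 members below 0, against 0.01 and 27 members in experiment 4 and 0.02 and 26 members in experiment 5. H3 genes had medians of 0.53, 0.11 and −0.20, and H4 genes of 0.10, −0.19 and −0.17. H1 genes had medians of 0.35, −0.05 and 0.05, and H2B genes of 0.22, −0.05 and 0.24. H2A genes stayed above 0, with medians of 0.35, 0.25 and 0.14. DNA replication genes had medians of 0.02, −0.65 and −0.85. Their mean log2 level was 7.82 to 8.81 with ΔNp53:WTp53, 8.63 to 8.81 with WTp53 and 9.05 to 9.16 with vector. None of the 19 passed the test between ΔNp53:WTp53 and WTp53, 9 had an unadjusted p under 0.05, and their part in the histone values was not tested. Without experiment 0, 5 members rose (H2AC20, H2AC21, H2BC7, H3C10 and H4C16) and 4 fell (H2BC10, H2BC14, H4C2 and H4C5), with a median of 0. In that fit H3C10 was higher by 1.44 ± 0.16 and H2BC7 by 0.86 ± 0.10, while H2BC14 fell by 1.06 ± 0.22 and H4C2 by 0.57 ± 0.15. The count was 0 without the WTp53 array of experiment 4 or that of experiment 5, 1 without the ΔNp53:WTp53 array of experiment 4 or that of experiment 5, and 6 without that of experiment 0.

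**Figure D4:**
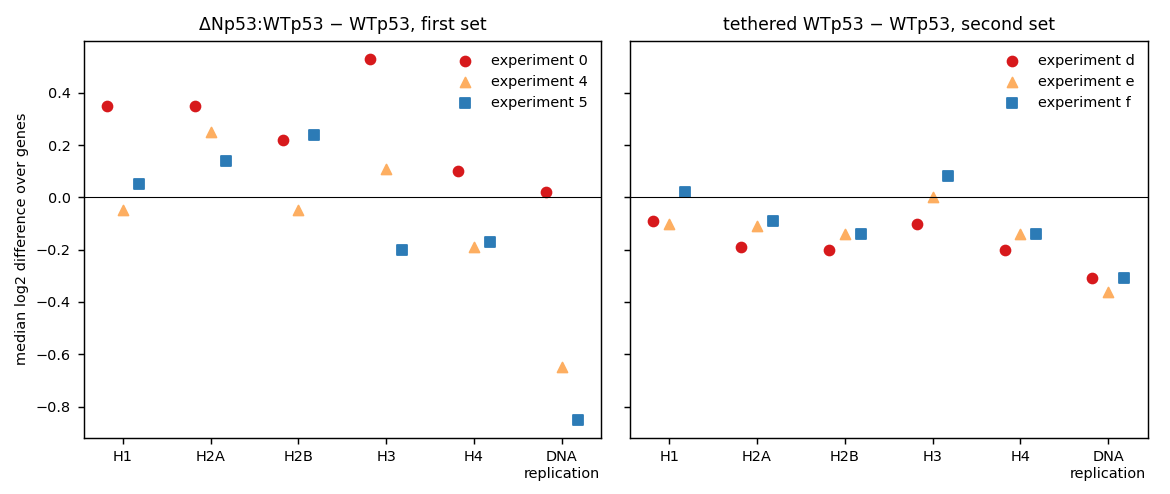
Median log2 difference over the genes of each histone type and over the DNA replication genes, within each experiment, for ΔNp53:WTp53 minus WTp53 (left) and tethered WTp53 minus WTp53 (right). In experiment 0 all medians on the left lie above 0, whereas DNA replication genes lie at −0.65 and −0.85 in experiments 4 and 5; on the right the H1, H2A, H2B and H4 medians lie between −0.20 and 0.02.

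Tethered WTp53 against WTp53 serves as the control comparison for a joined construct. Against WTp53, 18 of 57 members fell with tethered WTp53 and 1 rose, against 17.5% and 14.9% of all genes. In either direction 33.3% of the members were called, near the 32.4% of all genes. The median difference of the members was −0.13. Falls were small. H3C12 fell 1.46-fold (7.93 ± 0.17 with tethered WTp53 and 8.47 ± 0.01 with WTp53; −0.55 ± 0.08, adjusted p = 0.000444), H2AC12 by 0.51 ± 0.11, H4C4 by 0.48 ± 0.09, H1-5 by 0.44 ± 0.09, H3C2 by 0.37 ± 0.07 and H2BC12 by 0.19 ± 0.04. H2BC11 fell by 0.29 as well, so that tethered WTp53 stood between WTp53 and vector. The only rise was H1-3, with 7.94, 8.03 and 7.97 with tethered WTp53, 7.76, 7.82 and 7.85 with WTp53, and 8.20, 8.40 and 8.38 with vector. Its groups did not overlap, and it rose by 0.17 ± 0.06 against WTp53 (adjusted p = 0.0443). No member rose after centring or repeated quantile normalization, in the fit of all 18 arrays, or without any 1 tethered array, any 1 WTp53 array or the vector array of experiment f. By type, 2 of 6 H1, 5 of 14 H2A, 6 of 16 H2B, 2 of 8 H3 and 3 of 13 H4 genes fell. The median was −0.17, −0.12 and −0.11 in experiments d, e and f. Of the 19 DNA replication genes 17 fell and 1 rose (94.7% called, against 32.4% of all genes). Their mean log2 level was 10.04 to 10.11 with tethered WTp53, 10.39 to 10.41 with WTp53 and 10.52 to 10.56 with vector. Their part in the histone values was not tested. In a fit that shares the spread of all 18 arrays, 1 member fell and none rose. The count of calls was 8 without the tethered array of experiment d, 9 without the WTp53 array of experiment e and 11 without that of experiment f.

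WTp53 was set against vector in both sets, on different arrays. Over the 57 members the differences of the first and the second set had a Pearson r of 0.822 and a Spearman rho of 0.818, given as a description across genes that share arrays and sequence. All 36 members that fell in the first set were among the 46 that fell in the second, 1 rose in both (H2BC11), and none had opposite calls. The other 10 falls were found in the second set alone. The members without a call in either set were H2AC1, H2AC11, H2BC1, H2BC26, H2BC8, H3C3, H4C7 and H4C9. Of these, H2AC11 (9.32 with WTp53 and 9.08 with vector in the first set) and H2BC8 (8.83 and 8.67) lay far above the array medians, whereas H2AC1, H2BC1, H3C3 and H4C7 lay below them in both sets. The size of the WTp53 difference itself differed between the sets for 9 of 57 members, 15.8%, near the 12.5% of all genes. The count was 2 to 18 when 1 array was left out. H2BC7 was among the 9 (−2.21 in the first set and −1.39 in the second). The ΔNp53:WTp53 and tethered WTp53 differences from WTp53 differed for 4 of 57 members, 7.02%, against 2.95% of all genes: H2BC7 (1.02 and −0.15), H3C10 (1.16 and 0.07), H2AC21 (0.62 and −0.05) and H2AC13 (0.33 and −0.21). That count was 2 to 7 when 1 array was left out.

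Factors that transcribe and process histone mRNA changed in part. Of 18 measured members of that list, 9 fell and 2 rose with ΔNp53:WTp53 and 7 fell and 2 rose with WTp53 against vector in the first set. Tethered WTp53 lowered 13 and raised 3 in the second set, and WTp53 lowered 7 and raised 1. Of the list 61.1% was called with ΔNp53:WTp53 and 50% with WTp53 in the first set, against 36.1% and 31.8% of all genes, and 88.9% with tethered WTp53 and 44.4% with WTp53 in the second, against 47.8% and 36.8%. NPAT, the coactivator at the histone clusters, fell with WTp53 by 1.45 ± 0.23 in the first set and 0.68 ± 0.05 in the second, and by 0.73 ± 0.05 with tethered WTp53. With ΔNp53:WTp53 it averaged 6.22 ± 0.40, with WTp53 5.57 ± 0.41 and with vector 7.02 ± 0.12 (SD, n = 3), a fall of 0.80 ± 0.23 for ΔNp53:WTp53. CASP8AP2, or FLASH, which joins 3′ end cleavage to NPAT bodies, fell by 1.11 ± 0.18 with WTp53 in the first set. ERI1, an exonuclease that trims histone mRNA ends, fell by 1.38 ± 0.18 with ΔNp53:WTp53, by 1.07 ± 0.05 with tethered WTp53 and by 0.53 ± 0.05 with WTp53 in the second set. UPF1, a helicase needed for histone mRNA decay, moved the other way and rose by 1.48 ± 0.16 with ΔNp53:WTp53 and 1.07 ± 0.16 with WTp53. NCBP1, a cap-binding subunit, fell by 0.74 ± 0.04 with tethered WTp53. SLBP itself, named after its values were seen, differed from vector by −0.11 with ΔNp53:WTp53 and −0.15 with WTp53 in the first set, neither of which passed, and fell by 0.12 with tethered WTp53. Against WTp53, none of the list passed with ΔNp53:WTp53 (5 had an unadjusted p under 0.05), where 2.44% of all genes did. With tethered WTp53, 9 fell and 3 rose against WTp53 (66.7% called, against 32.4% of all genes). ERI1 (−0.54), CSTF2 of the cleavage complex (−0.44) and ZNF473 of the U7 particle (−0.59) led these calls.

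Of 10 measured promoter factors and their cyclin E-CDK2 input, 7 fell and 1 rose with ΔNp53:WTp53, and 4 fell and 2 rose with WTp53 against vector in the first set. Tethered WTp53 lowered 9 and raised 1 in the second set, and WTp53 lowered 2 and raised 2. Of the list 80% was called with ΔNp53:WTp53 and 60% with WTp53 in the first set, against 36.1% and 31.8% of all genes, and 100% with tethered WTp53 and 40% with WTp53 in the second, against 47.8% and 36.8%. The share with WTp53 in the second set was thus near that of all genes. The 2 cyclin E genes moved apart. CCNE1 rose by 0.68 ± 0.11 with ΔNp53:WTp53 and by 1.01 ± 0.11 with WTp53 in the first set, and by 0.70 ± 0.06 with tethered WTp53 and 0.88 ± 0.06 with WTp53 in the second. CCNE2 fell by 1.77 ± 0.31, 1.49 ± 0.31, 1.04 ± 0.07 and 0.57 ± 0.07 in the same comparisons. CDC25A, a phosphatase that activates CDK2, fell by 0.55 ± 0.13 with WTp53 in the first set and by 0.87 ± 0.07 with tethered WTp53. NFYA, which binds the CCAAT box, was the 1 factor lower with ΔNp53:WTp53 than with WTp53 (−0.67 ± 0.14, adjusted p = 0.0378), a call lost after centring, with the 6 arrays of the comparison alone and without any 1 array other than the ΔNp53:WTp53 array of experiment 0. It was also lower with tethered WTp53 than with WTp53 (−0.52 ± 0.07).

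Histone chaperones carry new histones to DNA. Of 22 measured, 12 fell and 2 rose with ΔNp53:WTp53 and 5 fell and 1 rose with WTp53 in the first set, and 17 fell and 2 rose with tethered WTp53 and 12 fell and 1 rose with WTp53 in the second. Calls in either direction came to 63.6% with ΔNp53:WTp53 and 27.3% with WTp53 in the first set, against 36.1% and 31.8% of all genes, and to 86.4% with tethered WTp53 and 59.1% with WTp53 in the second, against 47.8% and 36.8%. The share with WTp53 in the first set was thus not above that of all genes. HAT1, which acetylates newly made H4, fell by 0.86 ± 0.14 with ΔNp53:WTp53 and by 0.68 ± 0.05 with tethered WTp53. SUPT16H, a subunit of FACT, fell by 0.77 ± 0.04 with tethered WTp53 and by 0.33 ± 0.04 with WTp53 in the second set. NAP1L4, a chaperone of H2A and H2B, rose by 0.81 ± 0.11 with ΔNp53:WTp53 and by 0.60 ± 0.11 with WTp53. ASF1A (0.64 ± 0.13) and UBN1 (0.50 ± 0.10), of the replication-independent H3.3 pathway, were the 2 chaperones higher with ΔNp53:WTp53 than with WTp53. Both calls were lost with the 6 arrays of the comparison alone and without any 1 WTp53 array, the ΔNp53:WTp53 array of experiment 4 or 5 or the vector array of experiment 4 or 5.

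Replication-independent histone variants are made outside S phase as well as in it. Of 8 measured, 2 fell and 1 rose with ΔNp53:WTp53 and none fell and 1 rose with WTp53 in the first set, with medians of −0.21 and −0.02. Tethered WTp53 lowered 5 and raised none in the second set, and WTp53 lowered none and raised 2, with medians of −0.18 and 0.05. Calls in either direction came to 37.5% with ΔNp53:WTp53 and 12.5% with WTp53 in the first set, against 36.1% and 31.8% of all genes, and to 62.5% with tethered WTp53 and 25% with WTp53 in the second, against 47.8% and 36.8%. Apart from tethered WTp53, these shares lay near or below those of all genes. MACROH2A2 rose by 0.38 ± 0.13 with ΔNp53:WTp53 and by 0.47 ± 0.13 with WTp53 in the first set. The call with ΔNp53:WTp53 was lost after centring, with a mean-variance trend and without the ΔNp53:WTp53 array of experiment 0 or 4 or the WTp53 or vector array of experiment 4 or 5, and that with WTp53 without the vector array of experiment 4 or 5 or the WTp53 array of experiment 0. H2AJ rose by 0.40 ± 0.05 with WTp53 in the second set and was lower with tethered WTp53 than with WTp53 (−0.54 ± 0.05). H2AZ1 fell by 0.39 ± 0.10 with ΔNp53:WTp53 and by 0.38 ± 0.05 with tethered WTp53. Against WTp53, none passed with ΔNp53:WTp53 (1 had an unadjusted p under 0.05), where 2.44% of all genes did. With tethered WTp53, 6 of 8 fell against WTp53 (75% called, against 32.4% of all genes).

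Among DNA replication genes, PCNA, the sliding clamp and a p53 target, rose by 0.75 ± 0.12 with WTp53 in the first set and by 0.81 ± 0.05 in the second. The licensing factor CDC6 fell by 1.57 ± 0.43 with WTp53 in the first set, a call lost without the vector array of experiment 0 or 5 or the WTp53 array of experiment 4 or 5, and by 0.93 ± 0.05 with tethered WTp53. The primase subunit PRIM1 fell by 1.20 ± 0.24 with ΔNp53:WTp53, by 0.88 ± 0.05 with tethered WTp53 and by 0.56 ± 0.05 with WTp53 in the second set. The median over the 19 genes was −1 with ΔNp53:WTp53, −0.44 with WTp53 in the first set, −0.54 with tethered WTp53 and −0.15 with WTp53 in the second. For the histone members the same medians were −0.55, −0.77, −0.65 and −0.55. Side by side, the replication genes had their lowest median with ΔNp53:WTp53 and the histone members with WTp53 of the first set; the difference between the lists was not tested.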

How the data were processed

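Total RNA of sorted NCI-H1299 cells was measured on 18 Affymetrix Gene arrays. The deposited values are log2 intensities that the authors made with RMA in Affymetrix Expression Console, per the submitters' processing notes, in versions not given in the sources used here; the sets lie on different scales, so no level was compared between them. RMA assumes like distributions on all arrays, so a shift of all genes would not show. Of 33297 probe sets, 19460 list 1 symbol, 1754 list several and 12083 are unnamed here; genes with several probe sets (769) took the one with the highest mean, and 18392 of 18417 symbols are current in RefSeq. No dim gene was left out. The probe set of the transfected gene is not reported here.

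Each set of 9 arrays was fitted with limma 3.58.1 in R 4.3.3 (1 mean for each of 3 groups, leaving 6 residual degrees of freedom) for 6 comparisons, because spread differed between sets; a fit of all 18 arrays was an alternative and gave the 2 differences between sets (leaving 12). Adjusted p-values are Benjamini-Hochberg over all 18417 genes, two-sided, threshold 0.05. An exact permutation test of 3 arrays against 3 cannot go below 0.1, so none was used. Precision is limited by how many arrays there are. The fit was tested on simulated data.

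Members and lists were chosen with earlier results of these data known. Genes were named by a rule: per histone type the 2 largest falls and rises past the threshold against vector, the 6 members of smallest p against WTp53, members with polyadenylated or testis transcripts, and up to 3 genes per other list. Array values are given for the members of smallest p, those moving against their type, and, chosen after values were seen, H4C2, H1-5 and H2BC14.

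Arrays of the same experiment deviated together in the first set (residual correlations 0.11 to 0.57 for same-experiment pairs and −0.5 to 0.35 for others). Its experiment numbers thus pair the arrays; the reported fits have no block, and the fit with the block is given beside a result where it changes the call. Alternatives were the experiment as a block, all 18 or only 6 arrays, leaving out each array, centring, repeated quantile normalization, leaving out the dimmest 25% of genes, the mean of probe sets and a mean-variance trend; leaving out experiment 0, leaving out H4C15 and leaving out arrays for the differences between sets were chosen after seeing the data.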

Additional observations from a re-analysis of the deposited data

Results flagged for a closer look

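The effect of WTp53 against vector differed between the sets for 9 members in a fit of all 18 arrays. This share of 15.8% was near the 12.5% of all genes. Differences are first set minus second set, by limma with Benjamini-Hochberg over all genes. WTp53 lowered 7 of the 9 more, or raised them less, in the first set. These were H2BC4 (−0.85, adjusted p = 0.0149, with effects of −1.53 and −0.68), H2BC7 (−0.82, adjusted p = 0.0272), H4C8 (−0.69, adjusted p = 0.0447), H2BC21 (−0.64, adjusted p = 0.0264, with effects of −0.23 and 0.41), H2AC25 (−0.58, adjusted p = 0.0467), H2BC5 (−0.55, adjusted p = 0.0162) and H1-2 (−0.50, adjusted p = 0.0312). The other 2 fell only in the second set by its own fit: H4C1 (0.75, adjusted p = 0.026, with effects of −0.08 and −0.83) and H3C1 (0.55, adjusted p = 0.0237, with effects of 0.05 and −0.50). In the first set H4C1 averaged 4.82 with WTp53 and 4.89 with vector, and H3C1 3.70 and 3.65, which is at or below the array medians.

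The effect of the construct against WTp53 was compared as ΔNp53:WTp53 in the first set minus tethered WTp53 in the second. It differed for 4 members (7.02%, against 2.95% of all genes). All were higher for ΔNp53:WTp53: H2BC7 (1.17, adjusted p = 0.0102), H3C10 (1.09, adjusted p = 0.025), H2AC21 (0.67, adjusted p = 0.0129) and H2AC13 (0.54, adjusted p = 0.0375). H2AC13 passed in neither single comparison, with 0.33 and −0.21. Set and normalization cannot be told apart from these differences.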

How the results depend on the processing

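The counts of members called against vector stayed within 1.5 times under every alternative run. Leaving out 1 array gave 26 to 35 calls with ΔNp53:WTp53, 32 to 39 with WTp53 in the first set, 45 to 50 with tethered WTp53 and 44 to 49 with WTp53 in the second set. Of 60 calls of named members against vector, 55 passed under every alternative; H3C10 and H2BC1 with ΔNp53:WTp53, H2BC21 with both constructs of the second set and H2BC12 with WTp53 lost the call in at least 1, and none changed sign. ΔNp53:WTp53 against WTp53 (3 calls) gave 8 with all 18 arrays, 1 with its 6 arrays, 9 without experiment 0 and 0 to 6 when 1 array was left out. Tethered WTp53 against WTp53 (19 calls) gave 1 with all 18 arrays and 8 to 18 when 1 array was left out. The difference of WTp53 effects between the sets (9) gave 2 to 18 when 1 array was left out (2 to 5 without the WTp53 array of experiment e, f, 4 or 5 or the vector array of d, e, f, 4 or 5, and 18 without the ΔNp53:WTp53 array of experiment 0), and that of the construct effects (4) gave 2 to 7 (2 without the tethered array of experiment d or any 1 WTp53 array of the second set, 7 without the ΔNp53:WTp53 array of experiment 5). Among single members, the differences of H2BC4 and H2BC5 (WTp53 effects) and of H2AC21 and H2BC7 (construct effects) passed under every alternative run, and the other 9 lost the call in 4 to 14 alternatives. The cause of these changes was not tested. With the experiment as a replicate block the counts were 4, 39 and 40 in the first set, 19, 49 and 50 in the second, and 13 and 5 for the differences between sets. In the first set it also added the calls of H2BC3, H2BC13 and H4C16 with ΔNp53:WTp53 and of H2AC17 and H4C16 with WTp53 against vector (falls), of H2AJ and H1-10 with WTp53 against vector, and of CCNA2 and RRM2 between ΔNp53:WTp53 and WTp53; no call against vector was lost under it. In the second set same-experiment residual correlations were −0.04 to 0.13 (other pairs −0.21 to 0.16). They gave no sign that its letters pair the arrays, but they cannot exclude it. Centring or repeated quantile normalization moved no all-gene median beyond −0.03 to 0.02. The dim filter kept 44 members in the first set and 47 in the second. Signal over background was not measured, which limits what can be said of members below the array medians of their set, among them H1-1, H1-6, H2BC3 and H2BC6, which fell in the second set.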

Other observations

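A further 19 probe sets list several symbols, all histones of these clusters, and gave 16 distinct rows; they were fitted with all 33297 probe sets and belong to no single gene. Against vector, 12 fell with ΔNp53:WTp53 and 17 with WTp53 in the first set (23.2% and 20.8% of all probe sets were called in either direction). In the second set 13 fell with tethered WTp53 and 15 with WTp53 (34.3% and 26.1%). None rose in these 4 comparisons, and the medians were −0.59, −0.69, −0.46 and −0.34. Against WTp53, 2 rose and none fell with ΔNp53:WTp53 (0.916% called), and 5 fell and none rose with tethered WTp53 (21.9%).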
